A study of Mus musculus with 10 samples.

Results

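Sox9 was followed through injury and repair of the mouse kidney cortex, by day and by cell class, in 10 single-cell libraries. It is 1 gene of the 28808 with a row in at least 1 library, and it had a row in every library. In the GENCODE M21 annotation of mm10, Sox9 (ENSMUSG00000000567.5) lies on the + strand of chromosome 11 from position 112782224 to 112787760. It has 1 transcript of 3 exons, and no annotated gene overlaps it.

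The libraries came from Drop-seq, a droplet method in which each transcript captured from a cell carries a unique molecular identifier (UMI), so that molecules rather than reads are counted at the 3′ end. The labels give cortex of mice aged 4 weeks: 1 library of normal kidney as the control, 1 library each from day 1, day 2 and day 4 after injury, and 2 libraries each from day 7, day 11 and day 14. They name neither the kind of injury nor the strain or sex. They do not say whether the 2 libraries of a day come from separate animals, so the p-values below rest on spread between libraries that may be technical. The edgeR test used below also pools spread over genes, so its p-values do not measure the spread of Sox9 alone.

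Sox9 encodes an HMG-box transcription factor that is needed for cartilage formation and sex determination and that marks progenitor cells in many epithelia. In the developing kidney it is made in the growing tubule and ureteric tree, and in the adult kidney it is sparse. After acute injury it is known to be switched on in surviving tubule cells that rebuild the epithelium. Havcr1, the membrane receptor KIM-1, is the standard marker of injured proximal tubule. Vcam1, a cell adhesion molecule, marks proximal cells that have not regained their mature state.

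The libraries held 7091848 to 31632205 UMIs, and after filtering 50379 cells were used, with a median of 1252.5 to 2663 UMIs per cell. Each cell was classed by the UMIs of fixed marker genes, with no clustering. Within the tubular classes the median cell held 6 to 35 UMIs of its own markers and at most 4 of any other class. Proximal cells were marked by transporters such as Slc34a1 and Lrp2, cells of the thick ascending limb by Slc12a1 and Umod, cells of the distal convoluted tubule by Slc12a3 and Pvalb, and principal cells of the collecting duct by Aqp2. Tubular cells with epithelial markers but no passing segment are called segment-unnamed, and 33.3% of them lay within 1 UMI of the gate. Their markers include Krt8, Krt18, Krt19 and Havcr1, which rose after injury, so the class is not independent of injury. The proximal markers Slc34a1 and Lrp2 were lower at day 7 than in the control, so the proximal class is not independent of injury either. The tubular share of cells was 87.0% in the control, fell to 47.6% and 44.5% in the day 7 libraries and was 90.7% and 92.7% at day 14.

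Sox9 was a sparse transcript. The cells used held 2302 Sox9 UMIs in 1422 cells, and 2076 of these UMIs (90.2%) were in the 37949 tubular cells. Of 1422 positive cells, 1253 were tubular. Across all tubular cells of a library the level, in CPM (the Sox9 UMIs over all UMIs of the same cells, scaled to a total of 1000000), was 3.89 in the control, 24.7 at day 1, 22.6 at day 2 and 32.9 at day 4. The 2 day 7 libraries read 52.3 and 51.2 CPM, the day 11 libraries 4.80 and 7.11 CPM, and the day 14 libraries 1.51 and 1.07 CPM. Over this mix of tubular segments, Sox9 was therefore highest at day 7 and stood at 22.6 CPM or more in every library from day 1 to day 7. It was lowest at day 14, where both libraries lay under the control. The segment mix differed there too. Among tubular cells without a Sox9 UMI, the thick ascending limb made up 14.2% in the control and 7.02% and 7.83% at day 14. The part of that mix was not tested.

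Between days, counts were summed over the tubular cells of each library and tested over 16191 genes with edgeR's quasi-likelihood test and Benjamini-Hochberg adjustment. That fit rescales the libraries by TMM factors of 0.777 to 1.45, so its fold changes differ from ratios of the CPM values above. The control and days 1, 2 and 4 have 1 library each and are assumed to vary like the paired days. At day 7 Sox9 was 7.74-fold higher than in the control by edgeR's quasi-likelihood test (log2 change 2.95 ± 0.30 SE, adjusted p = 4.4e-05, n = 2 against 1). This comparison called 34.4% of all genes, 16.5% higher and 17.9% lower.

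From day 7 to day 11 Sox9 fell by 2.33 ± 0.24 SE on the log2 scale (edgeR's quasi-likelihood test, adjusted p = 2.8e-05, n = 2 against 2), in a comparison that called 44.2% of genes (23.0% higher, 21.2% lower). From day 7 to day 14 it fell by 4.45 ± 0.27 SE (edgeR's quasi-likelihood test, adjusted p = 9.2e-07, with 46.4% of genes called). Between day 11 and day 14 it fell by 2.12 ± 0.29 SE (edgeR's quasi-likelihood test, adjusted p = 0.0026, with 12.4% of genes called). At each of these steps the libraries of the 2 days did not overlap. The share of all genes without overlap was not counted, so this adds no support to the tests.

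Against day 14, Sox9 was 12.9-fold higher at day 1, 12.5-fold at day 2 and 16.8-fold at day 4. The adjusted p-values by edgeR's quasi-likelihood test were 2.1e-05, 2.5e-05 and 7.0e-06, in comparisons that called 36.9%, 22.5% and 24.3% of genes. Day 7 against day 4 did not pass (log2 change 0.38 ± 0.26 SE, edgeR's quasi-likelihood test, adjusted p = 0.42, with 6.46% of genes called). A single slope over the days after injury did not pass either, at -0.64 log2 per doubling of the day (edgeR's quasi-likelihood test, adjusted p = 0.35, with 0.616% of genes called).

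Day 11 against control did not pass, at a log2 change of 0.62 ± 0.30 SE (edgeR's quasi-likelihood test, adjusted p = 0.17, with 17.6% of genes called). Day 14 against control passed with a fall of 1.5 ± 0.32 SE (edgeR's quasi-likelihood test, adjusted p = 0.023, n = 2 against 1, with 7.71% of genes called, 4.48% higher and 3.24% lower). That call was lost without the second day 14 library (-1.28, edgeR's quasi-likelihood test, adjusted p = 0.13) and within single segments, as the next paragraphs give.

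**Figure D1:**
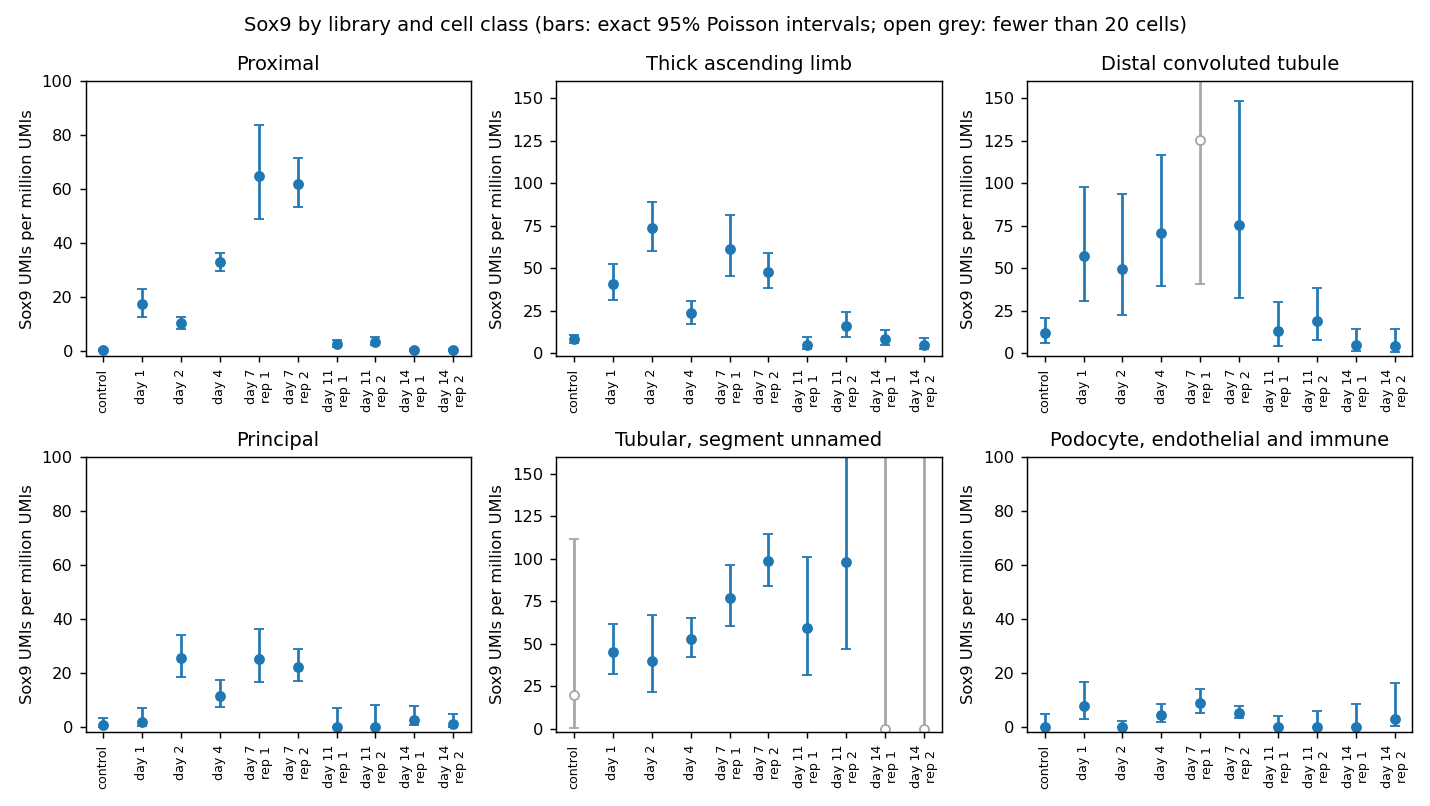
Sox9 CPM (y axis) in each of the 10 libraries (x axis) for 6 cell classes. Points are library values, bars exact 95% Poisson intervals that cover counting error only, and open grey points have fewer than 20 cells. Some intervals of the distal convoluted and segment-unnamed classes run past the top of the axis. Proximal cells go from 0.262 CPM in the control to 64.7 and 62.0 CPM at day 7, while the thick ascending limb starts from 8.14 CPM.

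Proximal cells, the segment that reabsorbs most of the filtrate, gave a wide range as a fold. It starts from a control share of positive cells no higher than the pooled macrophage share given below, which comes from other days. Principal cells read 0 in some libraries, so the classes cannot be ranked by fold. On the CPM scale the thick ascending limb and distal convoluted tubule spanned slightly more than proximal cells. The control held 4 Sox9 UMIs in 3478 proximal cells, or 0.262 CPM (exact 95% Poisson interval 0.0715 to 0.672). The level was 17.4 CPM at day 1, 10.3 CPM at day 2 and 32.9 CPM at day 4, where 236 of 2513 proximal cells (9.39%) had a Sox9 UMI. It was 64.7 and 62.0 CPM in the day 7 libraries, 2.57 and 3.49 CPM at day 11, and 0.269 and 0.374 CPM at day 14. Every library from day 1 to day 11 lay above the control, and the day 14 values lay within the interval of the control.

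In proximal cells alone, day 7 against control gave a log2 change of 6.97 ± 0.43 SE (edgeR's quasi-likelihood test, adjusted p = 2.3e-06, with 36.8% of genes called). On the CPM scale, without the TMM factors, the ratio was 239, resting on 247 UMIs over both day 7 libraries against 4 in the control. Those 4 UMIs are few, and their share of cells is no higher than the pooled macrophage share given below, which comes from other days. Neither value is therefore an exact fold of expression. Across tubular cells the gate marker Slc34a1 stood at 1295 TMM-scaled CPM in the control and at 191 and 210 at day 7. The day 7 proximal class thus holds cells that kept enough of such markers, and the part of this was not tested. Day 11 against control also passed in these cells (log2 change 3.35 ± 0.52 SE, edgeR's quasi-likelihood test, adjusted p = 0.0022, with 21.0% of genes called). The day 11 shares of positive cells are no higher than the pooled macrophage share given below, which comes from other days. Day 14 against control had a log2 change of 0.12 ± 0.69 SE and did not pass (edgeR's quasi-likelihood test, adjusted p = 0.95, with 8.46% of genes called).

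The thick ascending limb, which dilutes the urine and reabsorbs magnesium and calcium, carried Sox9 in the control. Its level was 8.14 CPM there, with a UMI in 29 of 744 cells (3.90%). It was 40.7 CPM at day 1, 73.4 CPM at day 2, 23.3 CPM at day 4, 61.4 and 47.7 CPM at day 7, 4.97 and 15.8 CPM at day 11, and 8.12 and 4.78 CPM at day 14. The highest single value was therefore at day 2, and both day 14 libraries lay at or under the control value of 8.14 CPM.

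Within the thick ascending limb, day 7 against control gave a log2 change of 2.05 ± 0.40 SE (edgeR's quasi-likelihood test, adjusted p = 0.0012, with 21.6% of genes called). Day 14 against control did not pass there (-0.36 ± 0.48 SE, edgeR's quasi-likelihood test, adjusted p = 0.76, with 1.80% of genes called). The difference between the 2 segments in the day 7 change was tested as an interaction, added after seeing the data. The proximal change exceeded that of the thick ascending limb by 4.88 ± 0.63 SE on the log2 scale (edgeR's quasi-likelihood test, adjusted p = 1.1e-06, with 21.2% of genes called). It stayed between 4.72 and 4.99 when single libraries of days 7, 11 and 14 were left out. The control end of that difference is 4 UMIs in 1 library of proximal cells and 49 in the thick ascending limb, so its size is not exact. Markers of both classes, such as Slc34a1 and Egf, were lower at day 7 than in the control. Each class then holds the cells that kept enough of its markers. The share of control proximal cells with Sox9 is no higher than the pooled macrophage share given below, which comes from other days.

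Cells of the distal convoluted tubule, the next segment downstream, read 12.0 CPM in the control on 12 UMIs and 57.2, 49.2 and 70.7 CPM at days 1, 2 and 4. At day 7 they read 125 CPM on 7 cells in one library and 75.2 CPM on 24 cells in the other. They read 12.8 and 18.6 CPM at day 11 and 4.76 and 3.98 CPM at day 14. In principal cells, which reabsorb water and sodium, Sox9 was at 0.578 CPM in the control and 1.91 CPM at day 1, and first stood clearly higher at day 2, at 25.4 CPM. It was 11.5 CPM at day 4, 25.1 and 22.2 CPM at day 7, 0 in both day 11 libraries and 2.66 and 0.851 CPM at day 14. Principal cells at day 1 thus stayed at 2 UMIs in 391 cells, whereas 31 of 673 proximal cells held Sox9 in the same library.

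Segment-unnamed tubular cells held the highest median level of Sox9 over the libraries where they could be read, although the distal convoluted tubule read higher at days 1, 2 and 4 and the thick ascending limb at day 2. They read 45.1 CPM at day 1, 40.0 CPM at day 2, 52.8 CPM at day 4, 76.8 and 98.4 CPM at day 7, and 59.1 and 98.2 CPM at day 11. At day 11 these were 86 and 43 cells with 13 and 10 Sox9 UMIs. The class had 13 cells in the control and 10 and 9 at day 14, too few for a level. Krt8, Krt18, Krt19 and Havcr1 are among the markers of the class, so its Sox9 level is not independent of injury. Of its day 11 values, 98.2 CPM lay between the day 7 values and 59.1 CPM below both, while proximal cells of the same 2 libraries were at 2.57 and 3.49 CPM.

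The make-up of the Sox9 signal moved between segments. In the control, 49 of 104 Sox9 UMIs were in the thick ascending limb, 36 in cells that passed several tubular gates, 12 in the distal convoluted tubule and 4 in proximal cells. The 22 positive cells of the several-segment group all had both thick limb and distal convoluted markers, a group whose 159 cells read 25.1 CPM in the control. Several-segment cells had a median of 4304 UMIs in the control against 3902 in the thick ascending limb, and the part of doublets among them was not tested. At day 4, 380 of 649 Sox9 UMIs (58.6%) were proximal and 7.40% were in the thick ascending limb. At day 14 the thick ascending limb again held the most, at 39.5% and 42.9%. Several-segment cells read 18.4 CPM in the control and 3.92 CPM over both day 14 libraries. Proximal cells made up 59.5% of the cells used in the control but 3.85% of its Sox9 UMIs.

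**Figure D2:**
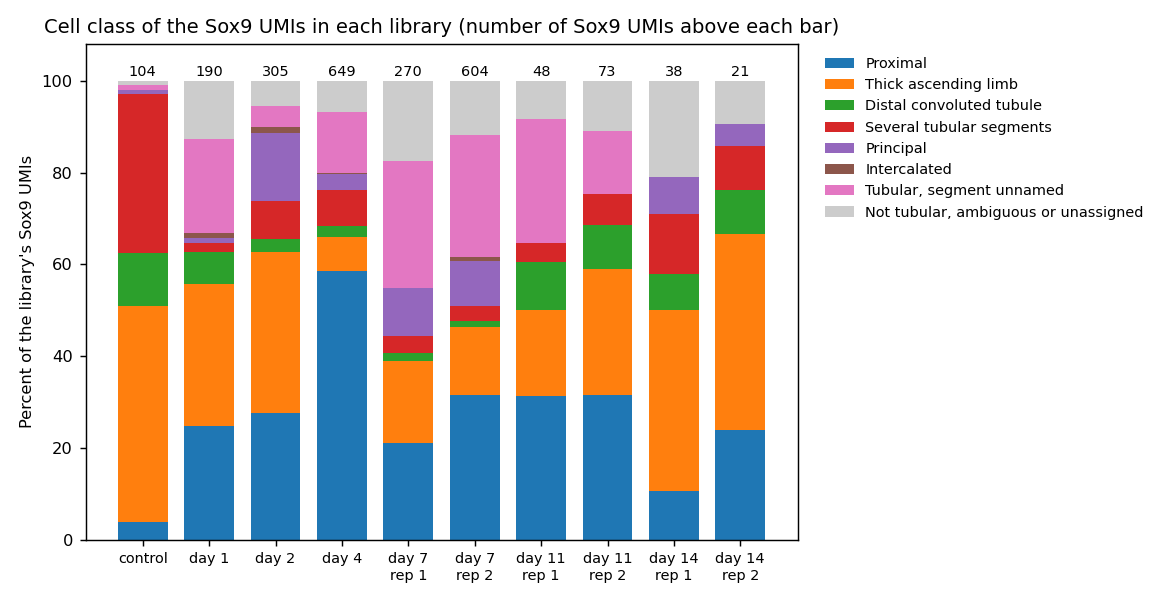
Share of each library's Sox9 UMIs (y axis, percent) by the class of the cell that held them, for the 10 libraries (x axis), with the number of Sox9 UMIs above each bar. Proximal cells hold 3.85% of the control's Sox9 UMIs and 58.6% of those at day 4, and the thick ascending limb 47.1% and 7.40%.

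Other kidney cells gave a background for these values. No Sox9 UMI was seen in 666 podocytes of the glomerular filter, with a median of 1310 UMIs per cell. Macrophages and monocytes held Sox9 in 34 of 4234 cells (0.803%), at a median of 1491 UMIs. In the second day 7 library 0.773% of macrophages had a Sox9 UMI (median 1689.5 UMIs per cell) against 17.9% of proximal cells (median 3121). In the first, 1.21% of macrophages (median 1238) stood against 11.1% of proximal cells (median 1833). Free RNA in droplets gives such UMIs in cells that do not express a gene. The proximal shares in the control (0.115%), at day 11 (0.228% and 0.461%) and at day 14 (0.0835% and 0.0929%) are no higher than the pooled macrophage share and are not read as expression in most proximal cells. That share comes from libraries of days 1, 4 and 7. In the other 6 libraries, the control among them, no macrophage held Sox9. This allows up to 2.52% and 4.05% at day 11, so the background at day 11 itself is not fixed closely. Tubular Sox9 was lower in the control and at days 11 and 14 than at days 1, 4 and 7. The pooled share may therefore not hold for those libraries. In the first day 11 library, 46 proximal cells with a Havcr1 or Vcam1 UMI held 12 Sox9 UMIs and 3027 without one held 3. In the second, 37 such cells held 2 and 3433 without one held 21. The part of free RNA in these values was not tested.

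Cells were also thinned to 1000 UMIs, with shallower cells left out (141 of 3478 control proximal cells, and 53 of 332 and 39 of 514 at day 7). Then 0.0300% of control proximal cells and 4.66% and 4.42% of day 7 proximal cells held Sox9. Before thinning the day 7 shares were 11.1% and 17.9%.

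Ordered by the median over libraries with at least 20 cells, Sox9 ran from segment-unnamed cells (59.1 CPM) through the thick ascending limb (19.5 CPM), distal convoluted tubule (18.6 CPM), stromal cells (7.98 CPM), proximal cells (6.89 CPM) and principal cells (2.29 CPM). The first of these medians is over the 7 libraries of days 1 to 11, whereas those of the thick ascending limb, proximal and principal cells also take in the control and day 14. The segment-unnamed class is also set in part by injury genes, as given above. Within libraries the thick ascending limb was lower than the distal convoluted tubule in 6 of 9, and stromal cells lower than proximal cells in 6 of 9, against the order of the medians. Intercalated, endothelial, macrophage, lymphocyte and podocyte classes all had a median of 0. No neighbours in this order passed a permutation test over libraries. The smallest p that test can give is 0.0312 with 6 libraries, 0.0156 with 7 and 0.00781 with 8. Alone, no such p can pass after adjustment over 10 pairs, so for those pairs the test cannot show that the classes are alike. The lowest of 10 p-values was for the distal convoluted tubule over stromal cells, a two-sided exact permutation test by sign flips (p = 0.0156, adjusted p = 0.156, higher in 7 of 8 libraries). The stromal value rests on 9 Sox9 UMIs in 661 cells.

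Sox9 was next set against the 2 injury markers within the same libraries. Across tubular cells, Havcr1 stood at 1.78 TMM-scaled CPM in the control, 1043 at day 1, 186 at day 2, 969 at day 4, 724 and 385 at day 7 and 6.89 and 3.65 at day 11. Vcam1 stood at 0.137 in the control, 35.2 at day 1, 67.4 at day 2, 310.5 at day 4, 277 and 235 at day 7 and 5.46 and 4.46 at day 11. Of the pair, Havcr1 was thus at its highest in the day 1 library and Vcam1 in the day 4 library, and Sox9 in the day 7 libraries.

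Cells with neither marker also held Sox9. Tubular cells with no Havcr1 and no Vcam1 UMI read 3.97 CPM in the control, 21.5 at day 1, 24.4 at day 2, 19.2 at day 4, 42.2 and 34.4 at day 7, 2.45 and 6.31 at day 11, and 1.49 and 0.972 at day 14. In these cells day 7 against control was still called (log2 change 2.47 ± 0.42 SE, edgeR's quasi-likelihood test, adjusted p = 0.0011, with 34.6% of genes called). A cell with no UMI of a marker may still express it at this depth. The segments of these cells also differed between the groups. Of them, 3443 of 5049 were proximal in the control, and 95 of 948 and 199 of 1418 at day 7. The part of segment in this change was not tested.

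Cells with at least 1 Havcr1 or Vcam1 UMI followed another course. They had no Sox9 UMI in the 37 such cells of the control, which allows up to 5.21 CPM at 3 counts. They read 27.3 CPM at day 1, 17.1 at day 2, 39.5 at day 4, 66.3 and 75.6 at day 7, 118 and 76.4 at day 11, and 2.38 and 6.03 at day 14. The day 11 values lay above those of both day 7 libraries, on 22 and 8 Sox9 UMIs in 59 and 43 cells. The number of such cells fell from 697 and 762 at day 7.

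In these marked cells day 11 against day 7 gave a log2 change of 0.66 ± 0.41 SE and did not pass (edgeR's quasi-likelihood test, adjusted p = 0.37, with 9.27% of genes called). In cells without either marker the same comparison was a fall of 2.30 ± 0.35 SE (edgeR's quasi-likelihood test, adjusted p = 0.00037, with 45.0% of genes called). The difference between the 2 cell groups, a test added after seeing the data, was 3.38 ± 0.45 SE (edgeR's quasi-likelihood test, adjusted p = 7.0e-12, with 4.41% of genes called). It dropped to 1.99 with an adjusted p of 0.12 by edgeR's quasi-likelihood test without the first day 11 library, in which 7 marked cells held the 22 UMIs. The segments of both groups also differed between the days. Of unmarked cells, 95 of 948 and 199 of 1418 were proximal at day 7, and 3027 of 3973 and 3433 of 4244 at day 11. Of marked cells, 237 of 697 and 315 of 762 were proximal at day 7, and 46 of 59 and 37 of 43 at day 11. The part of segment in the difference between the groups was not tested. From day 11 to day 14 Sox9 fell in the marked cells by 4.27 ± 0.72 SE (edgeR's quasi-likelihood test, adjusted p = 1.2e-06, with 6.03% of genes called). This fall rests on 30 Sox9 UMIs in 102 marked cells at day 11 and 3 in 130 at day 14. The kind of marked cell differed as well. Those with Havcr1 only numbered 55 at day 11 and 102 at day 14, with 9 and 0 Sox9 UMIs.

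**Figure D3:**
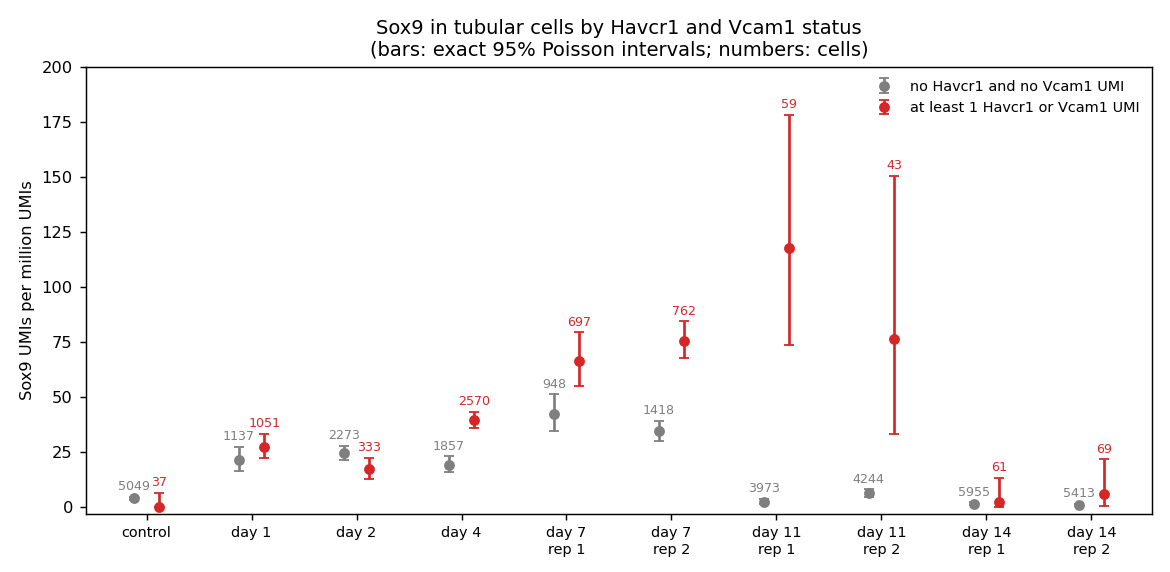
Sox9 CPM (y axis) in tubular cells with at least 1 Havcr1 or Vcam1 UMI (red) and with neither (grey), by library (x axis). Bars are exact 95% Poisson intervals covering counting error only and numbers are cells. At day 11 the marked cells read 118 and 76.4 CPM and the unmarked cells 2.45 and 6.31 CPM.

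Tubular cells were then split by which of the markers they held. Over both day 7 libraries, cells with neither marker read 36.6 CPM, with Havcr1 only 47.7, with Vcam1 only 77.0 and with both 82.1. At day 4 the same groups read 19.2, 27.1, 41.9 and 46.9 CPM, and the 1109 cells with both markers included 191 with Sox9 (17.2%). At day 11 the 41 cells with Vcam1 only held 19 Sox9 UMIs (178 CPM, exact 95% Poisson interval 107 to 278). These came from 6 positive cells, and the libraries read 231 CPM on 15 UMIs and 96.2 CPM on 4. The order was not the same in other libraries. The 4 groups read 21.5, 23.7, 87.2 and 32.4 CPM at day 1, 24.4, 8.59, 13.5 and 28.2 CPM at day 2, and 42.2, 45.2, 103 and 71.4 CPM in the first day 7 library. So cells with Vcam1 only were above those with both markers at day 1, on 41 cells, and in that day 7 library.

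Within libraries, Havcr1-positive against Havcr1-negative tubular cells differed in Sox9 by a log2 change of 0.49 and did not pass (edgeR's quasi-likelihood test, adjusted p = 0.22, 10 libraries, with 25.2% of genes called). Vcam1-positive against Vcam1-negative cells differed by 1.07 and did not pass either (edgeR's quasi-likelihood test, adjusted p = 0.068, 6 libraries, with 24.5% of genes called). That value passed with cells thinned to 1000 UMIs and shallower cells left out (0.74, edgeR's quasi-likelihood test, adjusted p = 0.033), with no filter on low counts (1.0, adjusted p = 2.4e-06) and without the day 2 library (1.28) or the first day 11 library (0.80). It did not pass without the day 1 (1.07) or day 4 library (1.07), or without the first (1.07) or second day 7 library (0.95). The p-value with no filter is not comparable with the others. Between day 14 and day 7, dropping the filter took the adjusted p from 9.2e-07 to 7.6e-56 by edgeR's quasi-likelihood test, at a like change. Cycling cells, with UMIs of at least 2 mitotic genes such as Mki67 and Top2a, differed from other tubular cells by -0.13 (edgeR's quasi-likelihood test, adjusted p = 0.73, with 10.5% of genes called). At day 4, cycling cells read 35.6 CPM, and in the day 7 libraries 34.3 and 52.0 CPM.

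In proximal cells the 2 markers and Sox9 were set side by side at each day. At day 4, 198 of 1514 marked proximal cells (13.1%) held Sox9 against 38 of 999 unmarked ones (3.80%), with medians of 3232 and 1879 UMIs per cell. After thinning to 1000 UMIs these shares were 3.36% (exact 95% Clopper-Pearson interval 2.47% to 4.46%) and 2.06% (1.20% to 3.28%), and the intervals overlapped. In the second day 7 library, 90 of 315 marked proximal cells (28.6%) held Sox9 against 2 of 199 (1.0%), at 73.9 and 3.85 CPM. In the first day 7 library the 2 groups read 65.2 and 62.1 CPM, the latter on 9 UMIs in 95 cells. At day 1 the groups read 19.3 and 7.01 CPM. At day 2 they read 15.4 and 7.64 CPM, and after thinning 0.893% and 0.846% of these cells held Sox9. The first day 11 library read 86.8 CPM in marked and 0.526 CPM in unmarked cells. The second read 22.0 and 3.23 CPM, the former on 2 UMIs in 1 cell. So marked proximal cells were higher on the CPM scale in every library from day 1 to day 11, by little in the first day 7 library.

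Genes that went with Sox9 from cell to cell were found by summing, in each library, the tubular cells with and without a Sox9 UMI. In 9 libraries with at least 20 positive cells, 351 genes were higher and 748 lower in Sox9-positive cells out of 11595 tested (9.48% called, 3.03% higher and 6.45% lower, edgeR's quasi-likelihood test with library as a block, adjusted p threshold 0.05). Positive cells were deeper, with a median of 4724 UMIs against 1964. They were also of other segments: 38.3% were proximal against 66.3% of negative cells, and 19.6% against 10.1% were of the thick ascending limb. With cells thinned to 1000 UMIs before Sox9 was called, 10 genes were higher and 56 lower of 7729 tested (0.854% called). That fit had 5 libraries and 312 positive cells in place of 9 and 1253, so the part of depth alone in the counts cannot be told apart from the smaller numbers. Leaving out single libraries gave 118 to 420 higher and 424 to 862 lower, with the fewest higher genes without the day 2 library.

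Among called genes with a mean log2 CPM of at least 5, Cldn16 rose most over all tubular cells. This tight junction protein that carries magnesium in the thick ascending limb was at a median of 161 CPM in positive and 58.6 CPM in negative cells over the 9 libraries (log2 change 1.66 ± 0.30 SE, edgeR's quasi-likelihood test, adjusted p = 0.0072, higher in 9 of 9). Slc12a3, the thiazide-sensitive transporter of the distal convoluted tubule, had a log2 change of 1.22, and Spp1, the secreted phosphoprotein osteopontin, of 1.19. Sytl2, Ppp1r1a, Fam107a, Kng1, Filip1l, Kctd1 and Ly6c1 completed the 10 with the largest rises, at 1.16 to 1.29. Cldn16 and Slc12a3 are among the markers that set the segments. In proximal and segment-unnamed cells alone, Ppp1r1a, Fam107a, Kng1, Kctd1 and Ly6c1 had changes below 0, at -0.12 to -1.18, and Slc12a3 one of 0.06, and of these the falls of Fam107a and Ly6c1 passed the test. After thinning to 1000 UMIs Filip1l alone of the 10 was still called (1.04, edgeR's quasi-likelihood test, adjusted p = 0.018). There Cldn16 was at 0.99, Spp1 at 0.41, Sytl2 at 0.23 and Slc12a3 at -0.12. With at least 2 Sox9 UMIs needed for a positive cell, in 5 libraries, Sytl2, Filip1l, Kctd1 and Spp1 were called. Cldn16 (0.89), Slc12a3 (0.60), Ppp1r1a, Fam107a, Kng1 and Ly6c1 were higher there but did not pass.

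Among the same genes Slc7a13, a cystine transporter of the last stretch of the proximal tubule, fell most. It was at a median of 21.4 CPM in positive and 342 CPM in negative cells (log2 change -3.29 ± 0.37 SE, edgeR's quasi-likelihood test, adjusted p = 0.000899, lower in 9 of 9). The organic anion transporter Slc22a6 fell by 2.93 and the urate transporter Slc22a12 by 2.78. The gluconeogenic enzymes Pck1 and G6pc fell by 2.87 and 2.85, and Miox, which opens the myo-inositol ring, by 2.77. Akr1c14, Inmt, Ces1f and Dnase1 fell by 2.86 to 2.98. After thinning Slc7a13, Slc22a6, Ces1f, Pck1 and Miox were still called lower, Dnase1, G6pc and Slc22a12 had changes of -0.82 to -1.32 that did not pass, and Akr1c14 and Inmt could not be tested.

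Segment was held closer by taking only proximal and segment-unnamed cells, in the 6 libraries with enough positive cells (725 positive and 10985 negative cells). There 431 genes were higher and 761 lower of 10666 tested (11.2% called, 4.04% higher and 7.13% lower). Of the injury and repair list, 11 of 22 members tested rose and 1 fell, with a median log2 change of 0.64 beside -0.01 over all genes. Vcam1 rose by 1.49 ± 0.25 SE (edgeR's quasi-likelihood test, adjusted p = 0.00013), the keratin Krt20 by 1.36, the hyaluronan receptor Cd44 by 1.19 and vimentin, Vim, an intermediate filament of mesenchymal cells, by 1.17. The stress transcription factor Atf3 rose by 1.07, the annexin Anxa2 by 1.05 and Havcr1 by 0.67.

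Other injury genes did not go with Sox9 in these cells. Lcn2, the iron-siderophore carrier NGAL, had a change of -0.23 ± 0.20 SE (edgeR's quasi-likelihood test, adjusted p = 0.56) and Clu, the chaperone clusterin, of -0.33. Krt7 fell by 0.95 and Krt19 had a change of -0.64, while Krt8 and Krt18 had changes of 0.41 and 0.38 that did not pass. Havcr1 and some of the keratins are also among the markers of the segment-unnamed class.

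Of the proximal function list, 16 of 17 members fell in Sox9-positive proximal and segment-unnamed cells, with a median log2 change of -1.19. Hnf4a, the transcription factor of the mature proximal state, fell by 0.60, the endocytic receptors Lrp2 and Cubn by 1.11 and 0.83, and the phosphate transporter Slc34a1 by 1.31. Slc13a1, a sulfate transporter, was the exception, at -0.08. The transporters, Lrp2 and Cubn are among the markers that set the proximal class, so their falls are not independent of how cells were classed. Hnf4a, Miox, Acsm2, Kap, Fbp1 and Pck1, which set no class, also fell. The part in these falls of segment-unnamed cells among the positive cells was not tested. Over all tubular cells the counts were 9 of 22 injury genes higher and none lower, and 15 of 17 proximal genes lower and none higher, beside 3.03% of all genes higher and 6.45% lower.

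**Figure D4:**
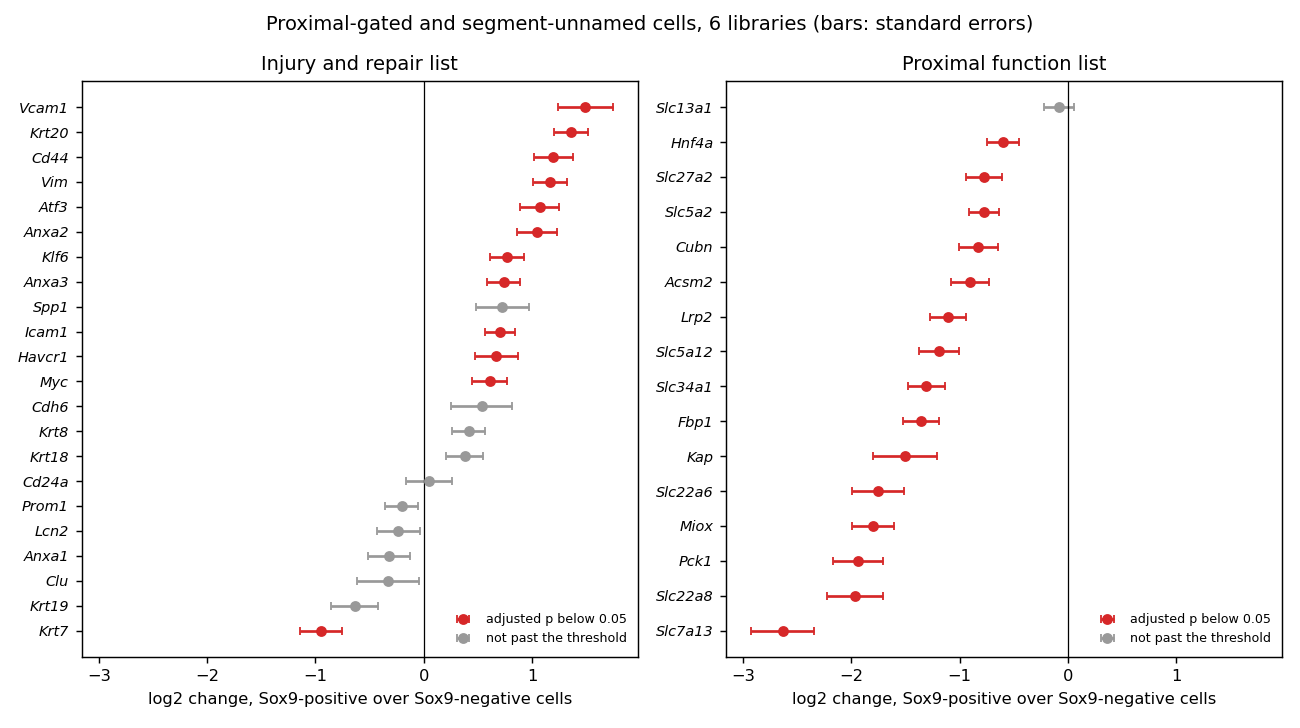
Log2 change (x axis) of the members of the injury and repair list and of the proximal function list (y axis) in Sox9-positive over Sox9-negative proximal and segment-unnamed cells. Bars are standard errors, red points passed edgeR's quasi-likelihood test at an adjusted p of 0.05, and 6 libraries were fitted. The figure leaves out 1 proximal member. Vcam1 stands highest at 1.49 and Slc7a13 lowest at -2.63.

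Among other SOX factors, 13 of 13 on the list had a row and 5 could be tested between Sox9-positive and Sox9-negative tubular cells. Sox4, a related factor of progenitor cells, rose by 0.69 ± 0.12 SE (edgeR's quasi-likelihood test, adjusted p = 0.0065). It rose by 0.66 in proximal and segment-unnamed cells alone. Sox5, Sox6, Sox12 and Sox13 did not pass. By day, Sox4 stood at 79.2 TMM-scaled CPM in the control, 283 at day 1, 195 at day 2, 170 at day 4, 320 and 372 at day 7, 67.7 and 46.0 at day 11 and 30.3 and 34.5 at day 14. Like Sox9 it was highest in the day 7 libraries and lowest at day 14.

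At day 7 against control, Sox4 rose by 2.13 ± 0.28 SE (edgeR's quasi-likelihood test, adjusted p = 0.00022). Sox13 rose by 1.18 and Sox8, the closest relative of Sox9 with Sox10, by 3.0, the latter at no more than 1.94 CPM in any library. Sox6 fell by 0.78. The median log2 change over the 8 members tested was 1.09, beside 0.04 over all genes. The day 7 change of Sox4 also exceeded in proximal cells that of the thick ascending limb, by 3.81 (edgeR's quasi-likelihood test, adjusted p = 4.5e-12).

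Pathways that are known to act with Sox9 in epithelia were read in the same fits. Of the Notch list, 3 of 10 tested members rose at day 7 against control and none fell, beside 16.5% of all genes called higher and 17.9% lower. The receptors Notch1 and Notch3 rose by 2.01 and 1.79 and the ligand Jag1 by 1.32, whereas the target Hes1 (0.38) and Notch2 (0.39) did not pass. Between Sox9-positive and Sox9-negative tubular cells 0 of 5 Notch genes passed edgeR's quasi-likelihood test, beside 9.48% of all genes, and 1, Jag1, had an unadjusted p under 0.05. DESeq2, run on every gene with a count, called 2 of 11, Jag1 and Nrarp, beside 5.94% of all genes. Its default gives no adjusted p to some genes of low count, which still stand in the total behind that share. In the edgeR fit Jag1 had a log2 change of 0.65 ± 0.20 SE (edgeR's quasi-likelihood test, adjusted p = 0.061).

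Of the EGF receptor list, 3 of 9 members rose at day 7 and 2 fell, where 17.9% of all genes fell and 16.5% rose. The ligands Areg and Tgfa rose by 2.94 and 2.83 and the receptor Erbb3 was the other that rose. Both ligands were low, at 0.274 and 0.229 TMM-scaled CPM in the control and no more than 2.63 and 1.73 at day 7. Areg was highest at day 4, at 22.0, and was called lower at day 7 against day 4. Egf, the ligand made by the thick ascending limb, fell by 5.72 ± 0.58 SE (edgeR's quasi-likelihood test, adjusted p = 4.2e-05), as did Erbb4, and Egfr itself did not pass (0.25). In Sox9-positive tubular cells Erbb4 was higher (0.92) and the ligand Btc lower (-1.18). In proximal and segment-unnamed cells alone both changed sign and neither was called, at -0.70 for Erbb4 and 0.09 for Btc. Of the Wnt list, 2 of 8 rose at day 7, the ligands Wnt4 and Wnt9b, and the receptor Lgr4 fell by 1.36. These counts are near the shares over all genes (16.5% higher, 17.9% lower). In Sox9-positive cells 0 of 5 passed with edgeR and 0 of 9 with DESeq2, beside 9.48% and 5.94% of all genes, and in both 1 gene, Lgr4, had an unadjusted p under 0.05. In proximal and segment-unnamed cells alone Lgr4 was called lower (-0.52, edgeR's quasi-likelihood test, adjusted p = 0.0073), 1 of 2 tested, where 11.2% of all genes were called.

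Of 5 targets of the mechanosensor YAP, Ankrd1 rose by 7.51 ± 0.49 SE at day 7 (edgeR's quasi-likelihood test, adjusted p = 4.2e-06) and Ajuba also rose, 2 of 5 beside 16.5% of all genes. In Sox9-positive cells 0 of the 5 passed with edgeR or with DESeq2, where 9.48% of all genes were called with edgeR, and in both 1 gene, Ajuba, had an unadjusted p under 0.05. Lists of this size are too short to read a count of 0 as a difference from that share. The nephrogenic list, genes of kidney development, had 4 of 10 members higher at day 7 (Foxc1, Npnt, Pax2 and Pax8) and Lhx1 lower, beside 16.5% and 17.9% over all genes. In Sox9-positive cells Sall1 was higher (0.52) and Npnt lower (-0.65), of 8 tested, beside 3.03% of all genes higher and 6.45% lower. Neither was called in proximal and segment-unnamed cells alone, where Sall1 was at -0.10 and Npnt at -0.03, and where Lhx1 was called lower (-0.78, edgeR's quasi-likelihood test, adjusted p = 0.0054). The targets of Sox9 in cartilage, such as Col2a1 and Acan, were hardly measured. Of 10 in the list 3 could be tested by day, none rose at day 7 against control, Hapln1 was called lower, and none passed the filter on low counts for the edgeR fit of Sox9-positive cells. DESeq2, run on every gene with a count, took in 9 there and called 1, Col11a2.

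The injury and repair list had 22 of 24 members higher at day 7 against control and none lower (median log2 change 4.08 beside 0.04 over all genes), and the proximal function list 14 of 17 lower (median -3.12), beside 16.5% of all genes higher and 17.9% lower. From day 7 to day 11, 21 of 24 injury genes fell and 15 of 17 proximal genes rose, beside 21.2% of all genes lower and 23.0% higher. At day 14 against control 3 of 24 injury genes were still higher, Icam1, Lcn2 and Vcam1, beside 4.48% of all genes. Both comparisons with the control share its single library.

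The genes most like Sox9 were ranked by Pearson's r of log2(TMM-scaled CPM + 1) over the 10 libraries, among 8619 genes with a mean of at least 10 CPM. This is a description with no test, since the libraries share days and cell make-up. Bak1, a pro-apoptotic member of the BCL2 family, was first with r = 0.98, at 4.62 CPM in the control, 15.4 and 18.3 at day 7 and 4.15 and 2.51 at day 14. Arpc1b, a subunit of the actin-branching complex, Flna, which crosslinks actin filaments, the small GTPase Rhou and Tmsb10, which binds actin monomers, followed with r = 0.97. Cdkn1a, the cell cycle inhibitor p21, had r = 0.97, with 11.8 CPM in the control and 147 and 116 CPM at day 7. Snx10, Ctsc, Vat1 and Rras completed the 10. With a pseudocount of 5 in place of 1, 5 of these 10 kept a place among the first 10, with Bak1 again first. With genes down to a mean of 2 CPM taken in, 8 of the 10 did, with Bak1 at place 3.

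Of the listed genes, the keratin Krt18 stood highest in that order, at place 11 (r = 0.96), Anxa2 at place 20, Sox4 at 70, Vcam1 at 141 and Havcr1 at 223. The other keratins stood at place 38 (Krt19), 142 (Krt20), 328 (Krt8) and 527 (Krt7).

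**Figure D5:**
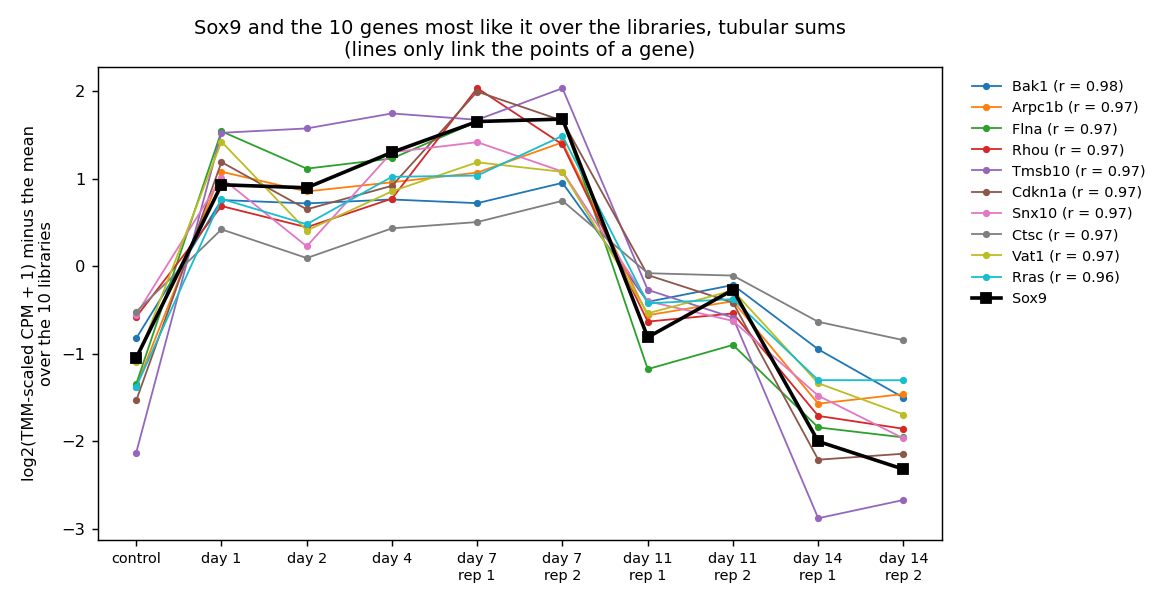
Log2(TMM-scaled CPM + 1) in tubular sums, minus each gene's mean over the libraries (y axis), for Sox9 (black squares) and the 10 genes most like it (coloured points) in the 10 libraries (x axis). Lines only link the points of a gene. Most of these genes are higher at days 1 to 7 than in the control, at day 11 and at day 14, with r of 0.96 to 0.98 to Sox9.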

How the data were processed

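Drop-seq UMI counts per gene and cell were deposited by the authors as 1 table per library. Per the submitters' processing notes, Bowtie2 2.2.7 and mm10 were used. Other steps are not given in the sources used here. Of 64803 barcodes, those under 500 UMIs or 500 genes, or over 50% mitochondrial UMIs, were left out. The 5% of cells with the highest doublet score (Scrublet in scanpy 1.11.5) were removed per library, which left 50379. Of the barcodes, 62 occur in 2 or more libraries. Cells were classed by 95 markers in 13 sets. A class needs at least 2 distinct markers and 3 UMIs (proximal 3 and 4), and at least 2 times the UMIs of the next class. Counts were summed per library and tested with edgeR 4.0.16 in R 4.3.3 (quasi-likelihood, TMM, filterByExpr, Benjamini-Hochberg at 0.05). DESeq2 1.42.0 was an alternative. Tests within libraries used sums of at least 20 cells with library as a block, leaving out the gene that defines the groups. The edgeR scripts were tested on simulated data with known changes. Class levels were compared with exact permutation tests of log2(CPM + 10). Poisson and Clopper-Pearson intervals are at 95% and cover counting error only.

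The genes named are Sox9, the 10 genes most like it, and for Sox9-positive cells the 10 called genes that rose most and the 10 that fell most, if their mean log2 CPM was 5 or more and 9 in 10 libraries moved the same way. The 3 members of each list with the highest level and the marker genes of the groups complete the rule. Other list members, such as Krt20, Cd44, Lcn2, Sox8 and Notch1, were named after their values were seen. In the proximal function list 1 member is counted but not reported by name here. Sox9 and all lists were chosen with earlier results of these data known.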

Additional observations from a re-analysis of the deposited data

Results flagged for a closer look

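The change of Sox9 from control to day 7 differed between segments. In proximal cells it was larger than in the thick ascending limb by 4.88 on the log2 scale (SE 0.63, edgeR's quasi-likelihood test, adjusted p = 1.1e-06). Sox9 went from 0.262 to 64.7 and 62.0 CPM in proximal cells and from 8.14 to 61.4 and 47.7 CPM in the thick ascending limb. Proximal cells had a median of 2665 UMIs in the control and 1833 and 3121 at day 7, and those of the thick ascending limb 3902, 1754 and 2285. The part of these depths was not tested, nor that of the lower gate markers at day 7.

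The change from day 7 to day 11 differed between tubular cells with and without a Havcr1 or Vcam1 UMI, by 3.38 on the log2 scale (SE 0.45, edgeR's quasi-likelihood test, adjusted p = 7.0e-12). Without the first day 11 library it was 1.99 and did not pass (edgeR's quasi-likelihood test, adjusted p = 0.12). The day 11 side rests on 10 positive cells among 102 marked cells. Proximal cells were a larger part of both groups at day 11 than at day 7, as given above, and the part of segment was not tested. Both tests were added after seeing the data. They lean on spread pooled over genes, since only days 7, 11 and 14 have 2 libraries.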

How the results depend on the processing

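Day 7 against control, day 11 against day 7 and day 14 against day 7 kept their direction and call under all alternatives in tubular cells that gave a value, other than in cells with a Havcr1 or Vcam1 UMI, where day 11 against day 7 was 0.66. Leaving out single libraries gave 2.94 to 2.97, -2.67 to -2.05 and -4.74 to -4.23 for these 3. Day 14 against control was -1.79 to -1.28 with single libraries left out, with the call lost without day 14 replicate 2, and was not called at -1.20 over cells of every class, -1.59 without marked cells, -0.36 in the thick ascending limb and -0.79 after thinning to 1000 UMIs, or at 0.12 in proximal and 1.59 in principal cells. Day 11 against control was 3.35 and called in proximal cells. Day 14 against day 11 was -0.50 in the thick ascending limb and day 2 against day 14 was 1.83 in marked cells, neither called. Against day 14, principal cells gave -0.0107 at day 1 and 2.35 at day 4, and the thick ascending limb 1.35 at day 4, none called. No value was taken for principal cells at day 11 or for marked cells in the control, which held 0 Sox9 UMIs. The interaction of marker and day was 1.99 to 4.35 with single libraries left out.

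Samples with the same replicate number did not deviate together (r = 0.11, -0.03 and -0.07 for the 3 pairs of days), so the numbers were not taken as pairs. With the number as a replicate block, Sox9 changed by -2.37 from day 7 to day 11, and no call for Sox9 changed.

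Vcam1-positive cells gave 1.0 with no filter and 0.74 after thinning, both called, and 0.80 to 1.28 with single libraries left out. Of the latter, only the fits without the day 2 or the first day 11 library were called. In Sox9-positive cells, DESeq2 gave 586 higher and 1055 lower genes of 27645 with a count, and no filter 267 higher and 1034 lower of the same number. Thinning gave 10 higher and 56 lower, at least 2 Sox9 UMIs 150 higher and 273 lower, and left-out libraries 118 to 420 higher and 424 to 862 lower. In proximal and segment-unnamed cells Ppp1r1a was -0.66, Fam107a -1.18, Kng1 -0.51, Kctd1 -0.12 and Ly6c1 -0.53. After thinning Fam107a was -0.41 and Slc12a3 -0.12. With a pseudocount of 5, 5 of the 10 genes most like Sox9 stayed among the first 10. Neighbouring classes of low level changed order: principal minus intercalated was -0.0138 with the loose gate, intercalated minus endothelial -0.0569 after thinning, endothelial minus macrophage -0.0418 with the loose gate, -0.07 with doublets kept and -0.0521 after thinning, and macrophage minus lymphocyte -0.012 with the strict gate and -0.18 after thinning. The causes were not tested beyond what each setting leaves out. Sox9 UMIs are few, so classes under about 20 cells give no usable level.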

Other observations

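Most of the 1422 cells with Sox9 held a single Sox9 UMI (1008 cells), 239 held 2 and 175 at least 3, with 20 as the highest number in a cell. At day 11 few proximal cells carried the injury markers. The 46 and 37 proximal cells with a Havcr1 or Vcam1 UMI held 12 and 2 Sox9 UMIs, and the 3027 and 3433 proximal cells without one held 3 and 21.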
